A study of Mus musculus with 4 samples.

Results

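The alpha and beta crystallins are described here as they stood in RNA-seq of mouse retina dissected from embryos at E13.5. The group was chosen by name as 8 genes, 2 alpha (Cryaa and Cryab) and 6 beta (Cryba1, Cryba2, Cryba4, Crybb1, Crybb2 and Crybb3), of the 25239 gene IDs in the tables. The series sequenced 4 libraries, 2 labelled control and 2 labelled Isl1cKO, and describes the latter retinae as lacking the LIM-homeodomain transcription factor Isl1. The alleles, the driver and timing of any recombinase, the litters and whether tissue was pooled are not given in the sources used here. The labels do not say whether replicates came from separate animals, so every p-value measures only the spread between these libraries. Levels are in TPM, a transcript unit scaled to transcript length and to the library total, so that levels of different genes can be set side by side.

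Crystallins are the abundant soluble proteins of the lens. The alpha crystallins belong to the small heat shock proteins, chaperones that hold unfolding proteins in solution. The beta crystallins share a beta-gamma fold with the gamma crystallins and form oligomers in lens fibre cells, where their transcripts accumulate as the fibres differentiate. Cryab is also transcribed widely outside the lens, for example in muscle and heart, and low crystallin expression is known in the retina itself.

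Isl1 was measured at 242 and 201 TPM in the control replicates, against 321 and 223 TPM where the label reads Isl1cKO. The level of the targeted gene was thus not lower where its loss is labelled, and every direction below is that of the labels. Retina markers were high in each library: Rax, Six6, Pax6, Atoh7, Pou4f2, Sox2 and Lhx2 summed to between 2812 and 3537 TPM. The median ratio of coverage to FPKM corresponded to 12.6 to 14.3 gigabases of aligned sequence per library. Isl1cKO replicate 2 had the least sequence and detected fewest genes at 1 TPM and above (13554, against 13816 to 13932). It also stood apart in red blood cell transcripts, which summed to 204 TPM there, against 1418 TPM in Isl1cKO replicate 1 and 2903 and 4168 TPM in the controls.

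The 8 genes lie at 6 loci on 5 chromosomes of mm10. Cryba4 and Crybb1 are neighbours on chromosome 5 that face away from each other, with starts 3302 bases apart, and Crybb3 and Crybb2 lie 5721 bases apart on the same chromosome in the same orientation. Promoter sequence is shown because the genes other than Cryab and Crybb2 stood low together in the same libraries, while Crybb2 was listed near 0 in all of them. RefSeq promoters on GRCm38.p6 were found for 7 of the 8 genes, all but Cryab, and the 250 bases before each annotated start are printed for 6 of them in the direction of transcription. Capitals mark the letters searched for: TGCTGA, a half-site of the Maf recognition element, which reads TCAGCA on the other strand, the letters TATAAA of a TATA box and the letters AACAAT of a core bound by SOX factors. The windows are chr17:31677681-31677930 (plus strand) for Cryaa, chr11:77725294-77725543 (minus) for Cryba1, chr5:112252519-112252768 (minus) for Cryba4, chr5:112255570-112255819 (plus) for Crybb1, chr5:113081585-113081834 (minus) for Crybb3 and chr5:113070118-113070367 (minus) for Crybb2.
Cryaa: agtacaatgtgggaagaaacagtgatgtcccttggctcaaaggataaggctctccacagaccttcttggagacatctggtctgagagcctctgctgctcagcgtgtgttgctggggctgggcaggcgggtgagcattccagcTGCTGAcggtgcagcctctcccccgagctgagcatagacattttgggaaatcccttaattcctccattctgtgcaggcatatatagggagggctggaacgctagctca
Cryba1: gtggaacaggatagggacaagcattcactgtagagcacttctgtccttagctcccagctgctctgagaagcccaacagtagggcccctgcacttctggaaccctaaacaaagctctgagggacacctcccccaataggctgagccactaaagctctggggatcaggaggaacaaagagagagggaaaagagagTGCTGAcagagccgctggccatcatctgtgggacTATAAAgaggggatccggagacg
Cryba4: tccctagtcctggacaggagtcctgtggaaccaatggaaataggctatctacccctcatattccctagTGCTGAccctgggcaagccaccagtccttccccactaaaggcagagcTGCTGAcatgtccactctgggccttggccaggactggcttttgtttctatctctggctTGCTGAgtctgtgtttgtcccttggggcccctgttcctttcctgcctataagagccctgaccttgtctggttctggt
Crybb1: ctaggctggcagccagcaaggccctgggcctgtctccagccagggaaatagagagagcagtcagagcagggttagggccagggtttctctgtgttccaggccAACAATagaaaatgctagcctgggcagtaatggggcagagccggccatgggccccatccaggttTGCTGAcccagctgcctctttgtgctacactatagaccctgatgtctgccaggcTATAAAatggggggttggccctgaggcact
Crybb3: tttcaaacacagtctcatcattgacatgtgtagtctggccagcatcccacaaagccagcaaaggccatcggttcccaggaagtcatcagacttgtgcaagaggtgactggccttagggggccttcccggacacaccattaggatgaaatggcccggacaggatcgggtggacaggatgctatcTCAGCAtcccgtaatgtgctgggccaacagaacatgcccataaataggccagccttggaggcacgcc
Crybb2: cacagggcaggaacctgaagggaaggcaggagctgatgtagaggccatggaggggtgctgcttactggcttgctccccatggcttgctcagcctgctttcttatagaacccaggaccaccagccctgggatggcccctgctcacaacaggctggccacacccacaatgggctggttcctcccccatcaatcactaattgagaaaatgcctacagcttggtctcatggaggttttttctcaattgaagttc

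TGCTGA occurred on either strand in 6 of the 7 promoters, against 16.1% of all 32851 promoter windows of that length. It began 108 bases before the start in Cryaa, 57 in Cryba1 and 84 in Crybb1. Cryba4 held it at 3 places, 182, 135 and 77 bases before the start. Crybb3 and Cryba2 held the reverse complement, 67 and 149 bases before the start. The Crybb2 window held none of the searched motifs. TATAAA was found in Cryba1 and Crybb1 (23 and 30 bases before the start), against 12.4% of all windows, and AACAAT in Crybb1 only, against 9.42%. The heat shock element GAANNTTC was found in 0 of 7, against 6.69%. The motifs do not overlap in these windows, and a match describes letters only.

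The contrast of the 2 groups was known when the genes were chosen, so their levels are a description and carry no test here. Summed within each family, crystallin transcripts stood far lower in the libraries labelled Isl1cKO. Apart from Crybb2, near 0 in each library, Cryab was the gene that differed least. Summed over the 8 genes, the level was 182 and 228 TPM in the controls and 8.78 and 5.23 TPM in Isl1cKO replicates 1 and 2. Both controls lay far above both libraries labelled Isl1cKO, whose mean was 3.41% of the control mean. These sums were 0.0182% and 0.0228% of all TPM in the controls. Because the tissue was sequenced in bulk, fewer cells of a type and less RNA per cell cannot be told apart. Tissue carried over unequally at dissection, lens included, cannot be told apart from either.

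**Figure D1:**
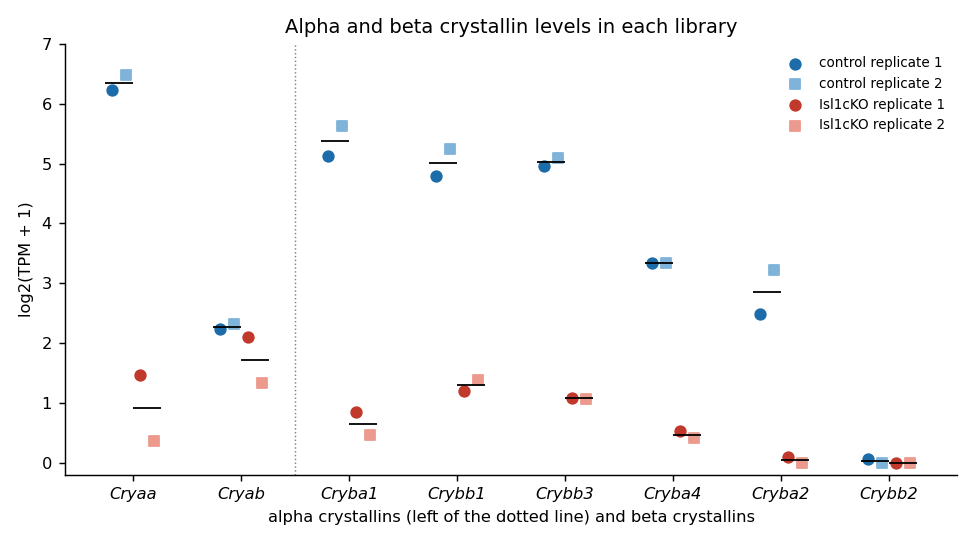
Level of each alpha and beta crystallin in the 4 libraries as log2(TPM + 1), with points for libraries and short bars for group means (n = 2 per group). The groups do not overlap for 7 genes (both libraries labelled Isl1cKO lie below both controls in 30.0% of all tested genes), the gap is smallest for Cryab, and Crybb2 lies near 0 in each library.

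Of the alpha crystallins, Cryaa, the chaperone subunit largely restricted to the lens, was the most abundant gene of the group in control tissue (chromosome 17, 31677931 to 31681730, plus strand, 3 exons in the principal transcript). It stood at 74.1 and 88.3 TPM in the controls, against 1.76 and 0.291 TPM in Isl1cKO replicates 1 and 2. Both libraries labelled Isl1cKO were low, and they differed from each other more, in relative terms, than the controls did. Averaged by group, this was 81.2 ± 10.1 TPM against 1.02 ± 1.04 TPM (SD, n = 2), and the log2 fold change was -5.44 (SE 0.38) on the log2(TPM + 1) scale used throughout. The mean coverage per base behind these values was 369 and 413 in the controls and 8.74 and 1.34 in the libraries labelled Isl1cKO.

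Cryab, the broadly transcribed alpha subunit (chromosome 9, 50751325 to 50756635, plus strand), stood at 62.3% of its control mean. It was at 3.71 and 3.99 TPM in the controls, against 3.28 and 1.51 TPM in Isl1cKO replicates 1 and 2. The groups did not overlap, but Isl1cKO replicate 1 lay close to the controls and the gap came mainly from replicate 2. The log2 fold change was -0.56 (SE 0.27), and leaving out Isl1cKO replicate 2 gave -0.18, leaving out replicate 1 gave -0.95. Its gene overlaps the small heat shock gene Hspb2 on the opposite strand, and 19.0% of the 50-base words of its principal transcript are also found, on either strand, in Hspb2 transcripts. Hspb2 itself was at 0.43 TPM or less, so little signal was listed for the overlapping partner. Whether the counting used strand is not given in the sources used here.

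The ratio of Cryaa to Cryab shows how the alpha pair parted. It was 19.98 and 22.1 in the controls and 0.536 and 0.192 in Isl1cKO replicates 1 and 2. Cryaa was thus above Cryab in both controls and below it in both libraries labelled Isl1cKO. The coding sequences of the pair are 64.2% identical.

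Among the acidic beta crystallins, Cryba1 was the most abundant (chromosome 11, 77718614 to 77725293, minus strand). It stood at 33.8 and 48.5 TPM in the controls, against 0.792 and 0.376 TPM in Isl1cKO replicates 1 and 2. Group averages were 41.1 ± 10.4 and 0.584 ± 0.294 TPM (SD, n = 2), and the log2 fold change was -4.72 (SE 0.23). Cryba1 in the libraries labelled Isl1cKO was at 1.42% of its control mean, close to the 1.26% of Cryaa.

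Cryba4 (chromosome 5, 112246492 to 112252518, minus strand) was the gene with the closest controls, at 9.15 TPM in each. Both libraries labelled Isl1cKO were far lower, with 0.442 and 0.336 TPM, a log2 fold change of -2.87 (SE 0.08). Its level there was 4.25% of the control mean. Cryba2 (chromosome 1, 74889934 to 74893143, minus strand) was at 4.59 and 8.38 TPM in the controls, at 0.0679 TPM in Isl1cKO replicate 1 and listed at 0 in Isl1cKO replicate 2. Its controls differed the most of the 7 genes relative to their mean, and its log2 fold change was -2.81 (SE 0.26). That value is held down by the pseudocount, since at a pseudocount of 0.1 it was -5.60. On the TPM scale Cryba2 was at 0.523% of its control mean, the lowest of the 7 tested members.

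Of the basic beta crystallins, Crybb1 and Crybb3 stood at nearly the same level. Crybb1 (chromosome 5, 112255820 to 112269585, plus strand) was at 26.7 and 36.8 TPM in the controls, against 1.31 and 1.62 TPM in Isl1cKO replicates 1 and 2. It was the only one of the 7 genes that was higher in Isl1cKO replicate 2 than in replicate 1. Its log2 fold change was -3.72 (SE 0.18). Crybb3 (chromosome 5, 113075839 to 113081584, minus strand) was at 30.2 and 33.1 TPM in the controls, against 1.13 and 1.09 TPM in the libraries labelled Isl1cKO. Its log2 fold change was -3.95 (SE 0.09). The replicates of Crybb3 lay close together in both groups. None of the 50-base words of the 6 beta transcripts was found in another gene's transcripts, and 8.30% of those of Cryaa were.

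Crybb2, the basic chain that becomes a major lens protein after birth, was all but missing (chromosome 5, 113058258 to 113070117, minus strand). It was listed at 0.0434 TPM in control replicate 1, on a mean coverage of 0.227 per base, and at 0 in the other 3 libraries. It was the member that did not pass the filter of 1 TPM in 2 libraries. Its neighbour Crybb3, whose coding sequence is 65.4% identical to it and the closest of the 15 beta pairs, was at 30.2 and 33.1 TPM in the same controls.

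In the limma fit over all 13984 tested genes, 6 of the 7 tested members had an adjusted p-value under 0.05, all lower, where 0.493% of all tested genes were called in either direction and 0.465% lower. The exception was Cryab. All 7 had both libraries labelled Isl1cKO below both controls, as did 30.0% of tested genes, and 6 of them were lower by at least 1 on the log2 scale, as were 1.48%. The median log2 fold change of the 7 was -3.72, against -0.05 for all tested genes. As this contrast chose the genes, these counts describe them and nothing is read from them. When every gene with a value above 0 was tested, 2 members were called, Cryba4 and Crybb3, among 15 called of 19784 genes. Without control replicate 1 the members called were 4 among 10 genes, and without control replicate 2 they were 4 among 14, each of 13984 tested. Without Isl1cKO replicate 1 they were 4 among 37, and without Isl1cKO replicate 2 they were 3 among 18. Crybb3 was the only member called in each of these fits.

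The order of levels in control tissue ran Cryaa, Cryba1, Crybb1, Crybb3, Cryba4, Cryba2, Cryab and Crybb2. Neighbours in this order did not overlap between the control libraries, apart from Cryba1 with Crybb1 and Crybb1 with Crybb3. Cryaa was 1.97 times Cryba1, and Crybb3 was 3.46 times Cryba4. In the libraries labelled Isl1cKO, Cryab had the highest mean, followed by Crybb1, Crybb3, Cryaa, Cryba1, Cryba4 and Cryba2. Most of these neighbours cannot be ordered there, since the values of Cryaa spanned those of Crybb1, Crybb3, Cryba1 and Cryba4. Cryab made up 2.03% and 1.75% of the summed crystallin TPM in the controls and 37.4% and 28.9% in Isl1cKO replicates 1 and 2. Cryaa made up 40.6% and 38.7% in the controls and 20.0% and 5.56% in the libraries labelled Isl1cKO.

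**Figure D2:**
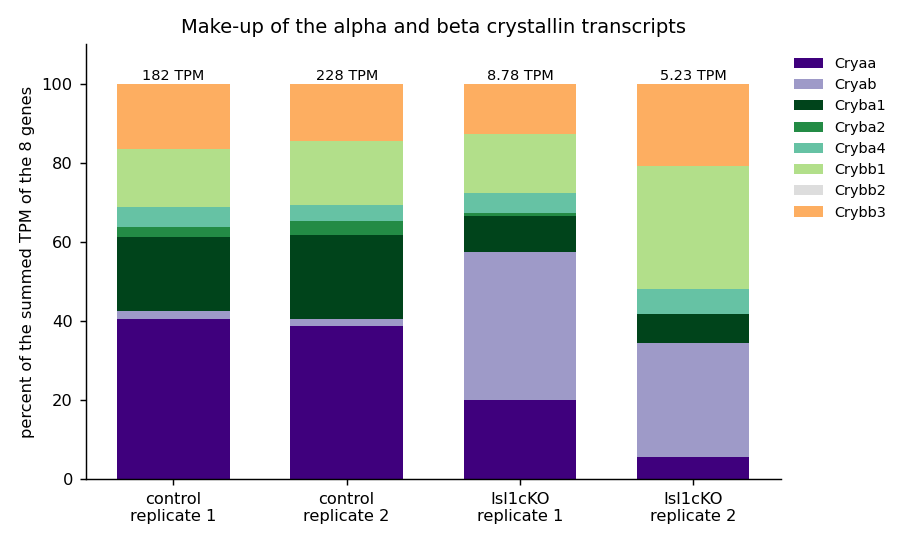
Share of each gene in the summed TPM of the 8 alpha and beta crystallins, in percent per library, with the summed TPM above each bar. The make-up of both controls is alike, and in the libraries labelled Isl1cKO Cryab takes a larger share of sums of 8.78 and 5.23 TPM, as do Crybb1 (31.1%), Crybb3 (20.8%) and Cryba4 (6.43%) in replicate 2.

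Members did not keep fixed ratios to each other. Crybb1 was 2.92 and 4.02 times its neighbour Cryba4 in the controls and 2.97 and 4.83 times in the libraries labelled Isl1cKO, so that this pair's ratios overlapped between groups. The ratio of Cryba1 to Crybb1 was 1.27 and 1.32 in the controls and 0.604 and 0.231 in Isl1cKO replicates 1 and 2. That ratio did not overlap between groups.

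The alpha and beta families were then compared as sums. Alpha members summed to 77.8 and 92.3 TPM in the controls and to 5.04 and 1.80 TPM in Isl1cKO replicates 1 and 2. Beta members summed to 105 and 136 TPM in the controls and to 3.74 and 3.42 TPM in the libraries labelled Isl1cKO. The beta sum thus differed little between the libraries labelled Isl1cKO, while the alpha sum differed between them. Relative to control, 4.02% of the alpha sum and 2.98% of the beta sum was present.

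The log2 ratio of the beta to the alpha sum, with 1 TPM added to each, was 0.42 and 0.55 in the controls and -0.35 and 0.66 in Isl1cKO replicates 1 and 2. The controls lay between the libraries labelled Isl1cKO. The mean difference was -0.33, given without a test, since 2 against 2 libraries cannot give an exact two-sided permutation p-value below 0.333. Its sign depended on which alpha gene entered: the difference was 0.73 with Cryaa alone and -4.15 with Cryab alone. It was 0.17 without Isl1cKO replicate 1.

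Gamma crystallins, the monomeric relatives of the beta chains, were read beside them. Of 8 gamma genes 7 were tested, and 6 were called lower in limma, where 0.465% of all tested genes were. The median log2 fold change of the 7 was -2.37, against -0.05 for all tested genes. The 8 gamma genes summed to 103 and 121 TPM in the controls and to 11.9 and 9.002 TPM in the libraries labelled Isl1cKO, which is 9.38% of control. The tested gamma genes ran from Crygf, listed at 0 in both libraries labelled Isl1cKO, and Crygb, at 0.456% of its control mean, to Cryge at 21.9%, while the 5 tested beta genes lay between 0.523% and 4.62%. Cryge shares 57.0% of its 50-base words with other genes, Crygf 34.9% and Crygb 29.4%, so the reads may be split among them and the range of the gamma genes is uncertain. No test of the families against each other was made.

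**Figure D3:**
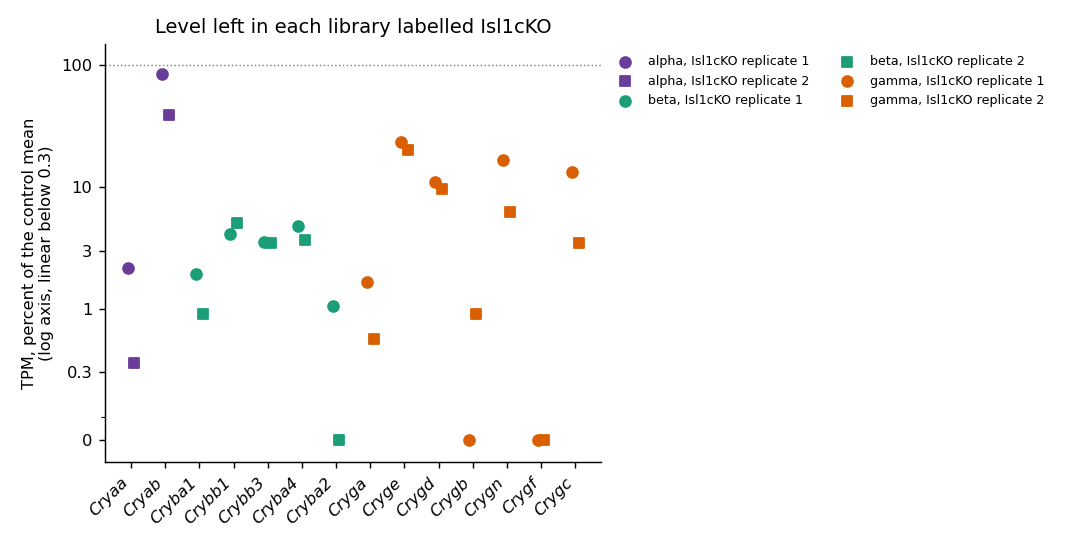
TPM in each library labelled Isl1cKO as percent of the gene's control mean, for the tested alpha, beta and gamma crystallins (circles replicate 1, squares replicate 2, log axis that is linear below 0.3). Cryab lies at 85.3% and 39.3%, whereas Cryaa and the beta genes lie at 5.11% or less.

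Of 12 lens fibre genes 7 were tested and 0 were called in limma (3 had an unadjusted p-value under 0.05), with 5 lower and 2 higher and a median of -0.12. Mip, the lens water channel, was at 2.95 and 4.79 TPM in the controls, against 1.28 and 1.60 TPM in the libraries labelled Isl1cKO (adjusted p-value 0.220). Lim2, a fibre membrane protein, had 1.04 and 1.59 TPM in the controls and was listed at 0 in both libraries labelled Isl1cKO (adjusted p-value 0.0742). Bfsp1, a subunit of the beaded filament, overlapped between groups, at 2.33 and 2.29 TPM against 1.76 and 2.38 TPM. Caprin2, the most abundant gene of that list, had group means of 25.6 TPM (control) and 26.7 TPM (Isl1cKO). Dnase2b and Lgsn were listed at 0 in each library.

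Regulators of crystallin genes were read from a list of 14 lens factors, of which 11 were tested and 0 called (1 with an unadjusted p-value under 0.05, 7 lower, 4 higher, median -0.07). Many of them, such as Pax6, Six3, Sox2 and Prox1, are also transcribed in the retina. Sox1, which is required for gamma crystallin expression, was at 4.13 and 3.20 TPM in the controls, against 1.13 and 1.25 TPM in the libraries labelled Isl1cKO (adjusted p-value 0.0764). Maf, the bZIP factor that binds the Maf recognition element, was at 12.4 and 9.15 TPM in the controls, against 6.75 and 8.54 TPM in the libraries labelled Isl1cKO (adjusted p-value 0.456). Pax6 had group means of 538 TPM (control) and 604 TPM (Isl1cKO), with an adjusted p-value of 0.486. Foxe3, the forkhead factor of the lens epithelium, was too low to be tested, at 0.629 and 0.452 TPM in the controls, 0.139 TPM in Isl1cKO replicate 2 and listed at 0 in replicate 1. Its groups did not overlap, with the libraries labelled Isl1cKO lower, as in 30.0% of all tested genes. Gata3 of the same list, also too low to be tested, went the other way without overlap, as did 2086 of the 13984 tested genes. It was at 0.152 and 0.399 TPM in the controls, against 1.47 and 0.833 TPM in Isl1cKO replicates 1 and 2.

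Relatives by name or fold were set beside the members. Of 9 small heat shock genes 4 were tested and 0 called (2 at an unadjusted p-value under 0.05). Hspb8 was at 4.64 and 3.56 TPM in the controls, against 1.61 and 1.98 TPM in the libraries labelled Isl1cKO (adjusted p-value 0.149), and Hspb1 at 2.67 and 1.503 TPM as group means (0.203). Hspb11, which is in this list by name only and is its most abundant gene, was at 49.1 and 47.8 TPM as group means. Of 7 enzyme crystallins and beta-gamma domain proteins 5 were tested and 0 called (1 at an unadjusted p-value under 0.05). That gene was Crym, at 2.74 and 1.59 TPM in the controls, against 0.939 and 0.620 TPM in the libraries labelled Isl1cKO (adjusted p-value 0.285). Cryzl1 stood at 50.7 and 49.96 TPM and Cryz, a quinone oxidoreductase, at 23.2 and 29.0 TPM as group means.

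Markers of tissues that a dissection may carry over were summed per library, and their part in the crystallin result was not tested. Lens is another such tissue. Its markers other than crystallins are given above, and its part was not tested either. Of the red blood cell genes 8 were tested. All 8 had both libraries labelled Isl1cKO below both controls, as did 30.0% of all tested genes. In limma 0 were called (4 at an unadjusted p-value under 0.05), with a median log2 fold change of -2.52. Pigment epithelium markers summed to 47.7 and 40.9 TPM in the controls and to 39.5 and 29.1 TPM in the libraries labelled Isl1cKO. Rpe65, a marker of mature pigment epithelium, was listed at 0 throughout. Periocular mesenchyme markers summed to 26.3 and 19.2 TPM against 18.2 and 14.5 TPM, and surface ectoderm and cornea markers to 29.2 and 26.5 TPM against 25.0 TPM in each. The red blood cell sum was 40.1% of its control mean in Isl1cKO replicate 1 and 5.78% in replicate 2, beside 4.28% and 2.55% for the alpha and beta crystallin sum. Both sums were thus low in replicate 2, and they lay further apart in replicate 1. Retinal ganglion cell markers summed to 3708 and 3163 TPM in the controls and to 1864 and 1281 TPM in the libraries labelled Isl1cKO. In limma Irx2 and Irx3 were called lower among 15, where 0.465% of all tested genes were. Of these 15, 14 had both libraries labelled Isl1cKO below both controls (30.0% of all tested genes). The exception was Pou4f2, at 126 and 124 TPM in the controls, against 135 and 120 TPM in Isl1cKO replicates 1 and 2. An unadjusted p-value under 0.05 was found for 14, and 12 were lower by at least 1 on the log2 scale (1.48%).

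**Figure D4:**
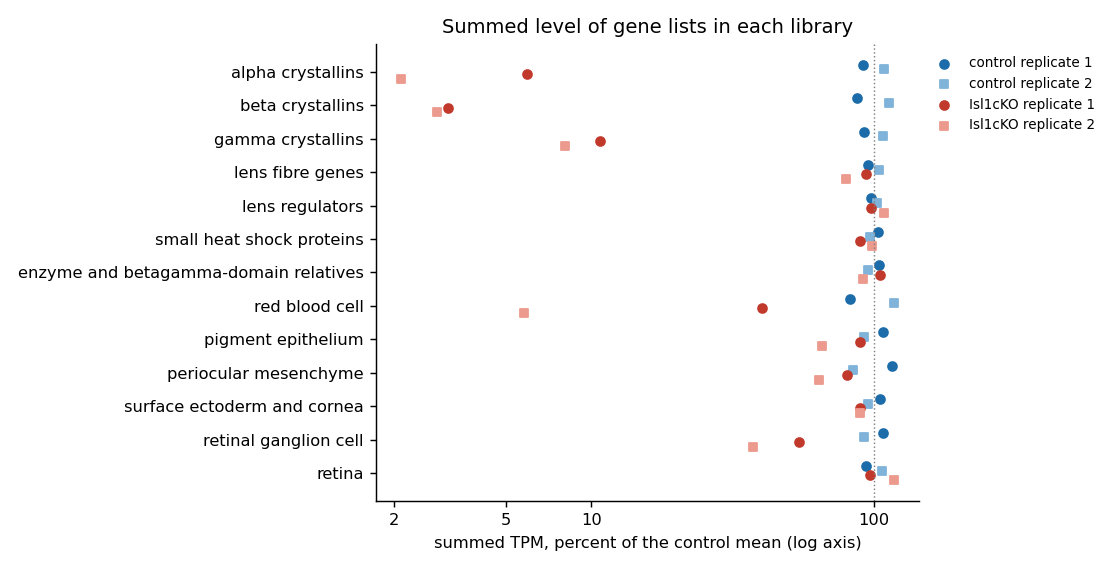
Summed TPM of each gene list in every library as percent of that list's control mean (log axis). Alpha, beta and gamma crystallins lie at 10.7% or less in both libraries labelled Isl1cKO, and red blood cell genes lie at 40.1% in replicate 1 and, beside the crystallins, at 5.78% in replicate 2.

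Genes around the crystallin loci were examined within 100 kb of each member. Among 19 tested neighbours that are not crystallins, 0 were called in limma and 3 had an unadjusted p-value under 0.05, and their median log2 fold change was -0.04. Of the 19, 12 had a negative value. The values ran from -0.92 for Cdk5r2, a neuronal kinase activator near Cryba2, to 0.37 for Cbs near Cryaa. Nufip2, which ends 647 bases from Cryba1, had a log2 fold change of 0.12 (adjusted p-value 0.684). Tpst2, 7159 bases from Crybb1, had 0.11 (0.753), and U2af1, 19166 bases from Cryaa, had 0.05 (0.829). Dixdc1, 13589 bases from Cryab, had -0.38 (0.304), and on its other side 1110032A03Rik, at 4738 bases, had -0.01 (0.980). Around Crybb3, 2900026A02Rik at 4738 bases had 0.02 (0.959) and Grk3 at 60300 bases had -0.23 (0.472). Nhej1, 74202 bases from Cryba2, had -0.17 (0.549).

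**Figure D5:**
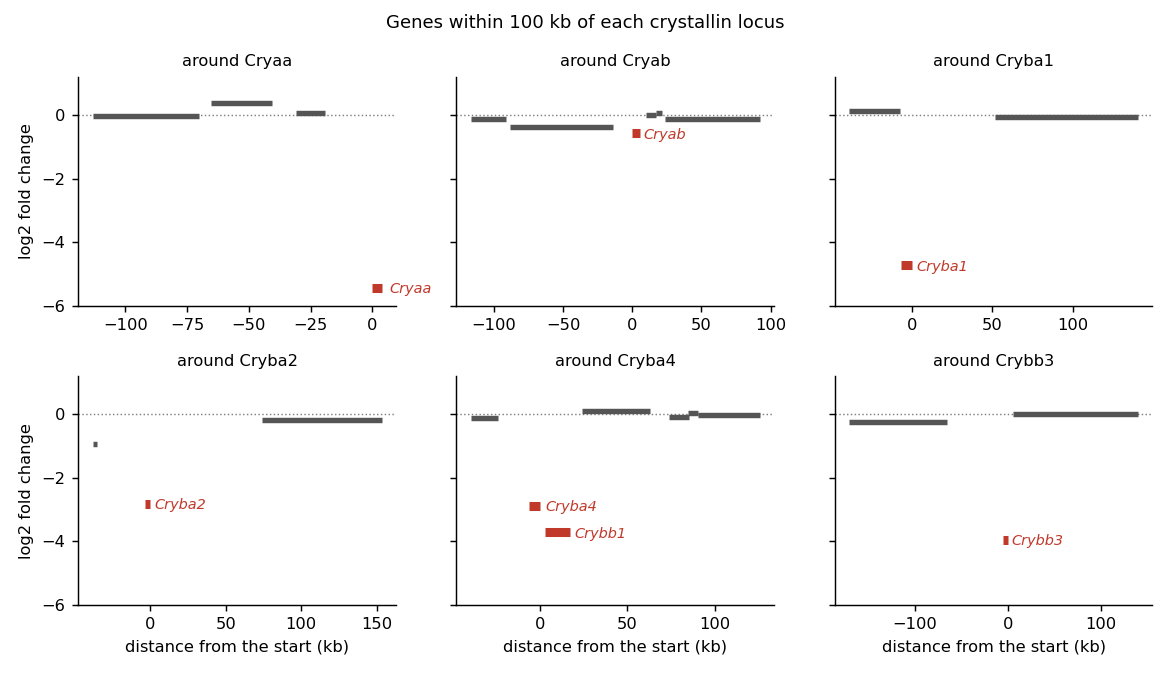
Log2 fold change (Isl1cKO minus control) of tested genes within 100 kb of each crystallin locus, drawn as bars along the distance in kb from the member's start (red, crystallins; grey, other genes). The crystallins other than Cryab lie at -2.81 or lower, and the other genes lie between -0.92 and 0.37.

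The genes whose profile over the 4 libraries lay closest to the summed crystallin level were found by Euclidean distance of centred log2(TPM + 1) values. They were Cryga (distance 0.18), the hedgehog target Gli1 (0.81), the alpha globin Hba-a2 (1.28), Crygb (1.45) and the Iroquois factor Irx5 (1.63). Among the members, the distance was 0.23 for Cryba1, 0.79 for Cryaa, 0.89 for Crybb3, 1.16 for Crybb1, 1.90 for Cryba4, 1.97 for Cryba2 and 4.16 for Cryab. By this measure Gli1 lay closer to the sum than 5 of the 7 tested members, and Irx5 closer than 3. The distance also depends on level, since the added 1 TPM holds down the change of low genes. Cryba2 and Cryba4 stood at 0.523% and 4.25% of control means of only 6.48 and 9.15 TPM. In control replicates 1 and 2 Gli1 was at 96.6 and 65.4 TPM and Irx5 at 23.7 and 16.9 TPM. Both were thus lower in control replicate 2, where the crystallin sum was higher. A distance over 4 libraries in 2 groups rests on few points.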

How the data were processed

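Retinal RNA from 4 libraries, 2 per group, was analysed. Per the submitters' processing notes, Trimmomatic, FastQC, HISAT2, SAMtools, StringTie and DESeq2 were used with mm10, with no versions given, and the annotation and strand setting are not given in the sources used here. The authors deposited 1 table per library with TPM, FPKM and coverage per gene. The deposited TPM sums to 1000000 per library, the deposited FPKM entered an alternative only, and the deposited coverage, mean depth per base, only described depth. Depth in reads is unknown, so no counting interval was computed.

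TPM was summed over repeated rows of a gene ID, and each member stood on 1 row. The 13984 genes at 1 TPM or more in at least 2 libraries were fitted as log2(TPM + 1) with limma 3.58.1 in R 4.3.3, genotype as the only term, and p-values were Benjamini-Hochberg adjusted over all of them at a threshold of 0.05. This scale understates changes of low genes. The model was tested on simulated data. The members, lists, motifs and tests were chosen with earlier results of these data known. The members were all named. Genes of the other lists were named for a high mean TPM, with a few chosen after their values were seen (Mip, Lim2, Bfsp1, Dnase2b, Lgsn, Sox1, Maf, Prox1, Foxe3, Gata3, Hspb1, Hspb2, Crym, Pou4f2, Rpe65). Neighbours named were some of the nearest tested genes on either side of a member, with Cdk5r2 and Cbs as the extremes. The most alike genes were the 5 nearest profiles that are not predicted genes or pseudogenes. Motifs were searched on both strands of the 250 bases before each RefSeq start on GRCm38.p6. Transcripts, exons and coding identity (global alignment) came from GENCODE M21.

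Alternatives were other pseudocounts, filters and scalings, FPKM, a mean-variance trend, the replicate number as a block, left-out repeated rows and each library left out in turn. 1 of the retina markers is not reported here and is not in their sum.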

Additional observations from a re-analysis of the deposited data

How the results depend on the processing

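The count of genes called over all tested genes, 69, became 44 at a pseudocount of 0.1, 15 with no filter beyond a value above 0, 127 with FPKM and 110 with a mean-variance trend. The replicate numbers correlated at 0.126 across genes, and with only 2 pairs they were taken as shared numbers. With the replicate block 265 genes were called, and the 6 called members were called with it as well. The median log2 fold change of the members was -4.71 at a pseudocount of 0.1, -3.29 with no filter, where Crybb2 enters, and -3.01 with FPKM. With no filter 2 members were called. Leaving out each library in turn, where the lone library of a group is assumed to vary like the other group, gave 10 to 37 called genes and 3 to 4 called members. The difference of the log2 beta-to-alpha ratio ranged from -0.838 to 0.171 over these, and was 0.725 with Cryaa alone and -4.15 with Cryab alone. Each member kept its direction under every alternative in which it was tested. Outside the left-out libraries, Cryba4 and Crybb3 kept their call in 10 of 10 alternatives. Cryaa lost it in 3 (a pseudocount of 0.1 or 0.5, and no filter), Cryba2 in 2, and Cryba1 and Crybb1 in 1 each (no filter). Over the left-out libraries Crybb3 kept its call in 4 of 4. Cryaa lost it without either control, Cryba4 without control replicate 1, Cryba1 without Isl1cKO replicate 2, Crybb1 without either library labelled Isl1cKO, and Cryba2 in 3 of 4. Except where more genes or fewer libraries entered by construction, the cause was not tested. In the libraries labelled Isl1cKO, the called members rest on a coverage of 0 to 8.74 per base, which limits their precision.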

Other observations

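Among the gamma crystallins, the share of 50-base transcript words found in another gene's transcripts was 57.0% for Cryge, 52.3% for Cryga, 34.9% for Crygf and 34.04% for Crygd. Their levels in the libraries labelled Isl1cKO were 21.9%, 1.11%, 0% and 10.3% of the control mean, with Crygf listed at 0 in both. Crygn and Crygs shared no such words. Crygn was measured at 6.26 and 10.1 TPM in control tissue, against 1.36 and 0.508 TPM in Isl1cKO replicates 1 and 2 (adjusted p-value 0.106, limma). By this measure the assignment of reads among Cryga to Crygf is uncertain.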
